A study of Mus musculus with 9 samples.

Results

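The transcription factors Gata3, Tbx21, Rora, Maf, Ahr, Bcl6, Irf4, Batf and Prdm1 were examined in resting regulatory T cells, as the rows of these 9 symbols among 34092 gene rows of the count table. The symbols were chosen for their roles in helper lineages and effector regulatory T cells. The cells were primary mouse T cells, isolated ex vivo, sorted and labelled as resting. WT libraries came from mice of genotype Foxp3gfp, which carry a green fluorescent reporter at Foxp3, and CNS2KO libraries from Foxp3deltaCNS2-gfp mice, which carry the reporter and lack CNS2. CNS2 is a conserved noncoding element inside Foxp3, the gene of the factor that defines these cells. The reporter is thus shared by both groups. Of 6 samples labelled WT and 3 labelled CNS2KO, the comparison used 5 and 2, because 1 number is carried by a sample of each genotype and its columns could not be told apart. WT 1032 and WT 1037 carry column names that begin differently from those of the other libraries used, and no CNS2KO library shares that form. What this form stands for is not given. The sources used here do not give age, tissue or mice per library, and the p-values reflect variation among libraries that may be technical.

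Each CD4 helper lineage has a factor that directs it. Tbx21 (T-bet) acts in type 1 helper cells, Gata3 in type 2 cells, Bcl6 in follicular helper cells, and Rora with Maf and the ligand-activated receptor Ahr in type 17 cells. Regulatory T cells also use these factors, and Irf4, Batf and Prdm1 (Blimp-1) are needed for their effector program. Irf4 and Batf bind DNA together with Jun proteins. Bcl6 and Prdm1 repress each other's genes.

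The fewest gene reads were 16557424, in WT 402, and the most 21836578, in CNS2KO 399. Levels are given as CPM, the reads of a gene relative to all gene reads of its library, with TMM scaling. The floor used here, 3 reads, corresponded to 0.142 to 0.182 CPM. Floors cover counting error only. The identity genes Foxp3, Il2ra, Cd4 and Cd3e were read in every library, with Foxp3 at 410 to 606 CPM in WT and at 463 and 441 CPM in CNS2KO. In bulk RNA, fewer cells of a kind and less RNA per cell cannot be told apart. The 9 factors together took 350 to 470 CPM in WT, and 367 and 433 CPM in CNS2KO.

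The start regions of Bcl6 and Prdm1 are shown because the balance of this pair is compared below. RefSeq sequences of the GRCm38.p6 build held a start region for 7 of the 9 genes. In the 250 bases before each start, both strands were searched for the letters AGATAA, a core bound by Gata3 and its family, GGTGTGA (T-box), TTCNNNGAA (read by STAT proteins and, in part, by BCL6), GAAA repeated after 2 bases (IRF), TGCTGA (Maf), AGGTCA (ROR), TTGCGTG (AHR), TGANTCA (AP-1, which Batf and Jun bind) and TGTTTAC (forkhead factors such as Foxp3). Matches are in capitals, and no matches overlapped in the regions shown, all on the minus strand of the genome and printed 5′ to 3′ toward the start. The first region of Bcl6 is chr16:23988853-23989102, the other chr16:23981284-23981533, and that of Prdm1 chr10:44458749-44458998.
Bcl6 first start: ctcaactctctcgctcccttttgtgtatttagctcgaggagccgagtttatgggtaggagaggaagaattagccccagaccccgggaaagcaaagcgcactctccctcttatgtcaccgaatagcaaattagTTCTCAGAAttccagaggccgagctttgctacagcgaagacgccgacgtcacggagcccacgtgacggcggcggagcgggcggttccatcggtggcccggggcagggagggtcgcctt
Bcl6 other start: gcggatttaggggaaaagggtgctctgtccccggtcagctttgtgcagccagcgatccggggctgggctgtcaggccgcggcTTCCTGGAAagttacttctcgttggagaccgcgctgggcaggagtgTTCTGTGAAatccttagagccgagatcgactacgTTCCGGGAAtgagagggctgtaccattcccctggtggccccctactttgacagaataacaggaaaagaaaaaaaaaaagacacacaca
Prdm1: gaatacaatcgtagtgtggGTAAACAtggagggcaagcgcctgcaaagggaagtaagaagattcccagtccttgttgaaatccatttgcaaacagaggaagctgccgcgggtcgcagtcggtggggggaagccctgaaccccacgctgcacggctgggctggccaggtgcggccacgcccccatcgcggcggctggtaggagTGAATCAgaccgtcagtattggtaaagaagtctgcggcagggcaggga
The other start of Bcl6 held TTCNNNGAA at 3 places and the first start at 1, where 7.02% of 32851 regions of this length held it. Prdm1 held an AP-1 core (6.75% of regions) and a forkhead core (3.17%). Of the regions not printed, that of Gata3 held TGCTGA (16.1% of regions), that of Batf held AGATAA (9.99%), and those of Tbx21, Irf4 and Rora held none of the motifs. A match is a description of letters, not a bound site, and the authors' build, mm9, differs.

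Gata3 and Batf were the most abundant of the 9 per length of exon, and Tbx21 the least. Divided by exon length, the WT means (SD, n = 5) were 47.6 ± 3.05 CPM per kb for Gata3, 44.8 ± 8.84 for Batf, 15.5 ± 5.95 for Irf4 and 7.64 ± 1.48 for Maf. They were lower for Prdm1 (4.55 ± 1.71 CPM per kb), Rora (3.30 ± 0.52), Bcl6 (3.15 ± 1.22), Ahr (1.82 ± 0.72) and Tbx21 (0.20 ± 0.26). Gata3 exceeded Batf in 3 of 5 WT libraries, Prdm1 exceeded Rora in 3, and Rora exceeded Bcl6 in 2, so these neighbours did not differ beyond their spread. Batf exceeded Irf4, Irf4 exceeded Maf and Ahr exceeded Tbx21 in 5 of 5 WT libraries, and Maf exceeded Prdm1 and Bcl6 exceeded Ahr in 4. Lengths came from GENCODE M21, and the order was the same with the length of the longest coding transcript.

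**Figure D1:**
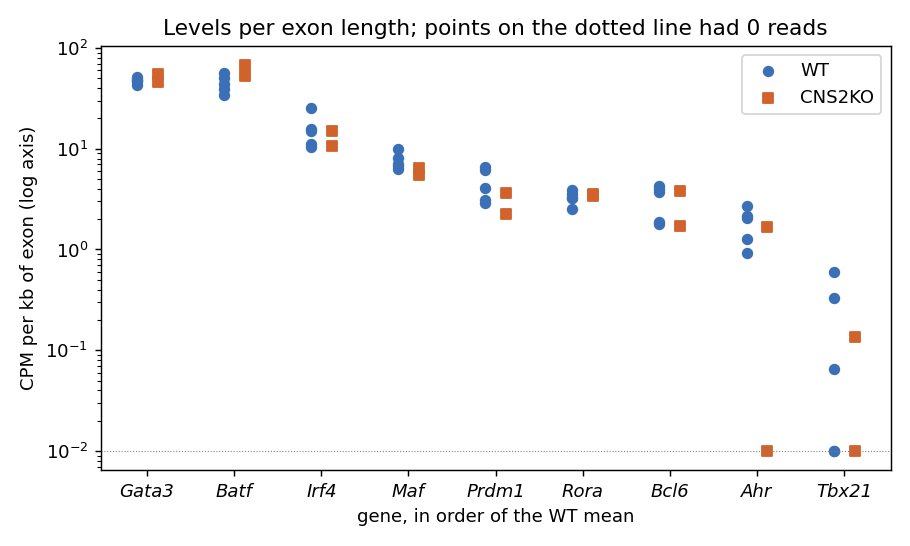
Level of each factor in CPM per kb of exon, on a log axis, with a point per library (blue circles WT, orange squares CNS2KO). Gata3 and Batf lie highest, and points on the dotted line had 0 reads (Ahr in CNS2KO 399, Tbx21 in WT 402, WT 1032 and CNS2KO 399).

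None of the 9 factors passed the test between the genotypes. edgeR's quasi-likelihood test called 0 of 9, and 0 of 14424 genes (0% of those tested), at a false discovery rate of 0.05. DESeq2 called 0 of the 9, as did limma-voom and a limma fit to the deposited log2 values. At an unadjusted p under 0.05 stood 0 of the 9 (2.5% of all genes, or 361), and the adjusted p of each was 0.99989. In 0 of the 9 did both CNS2KO libraries lie outside the WT range, where 6.77% of all genes did. The fold changes were positive for 3 and negative for 6, with a median log2 of -0.28 against -0.026 over all genes, and it was -0.053 without CNS2KO 399 and -0.54 without CNS2KO 408. All 9 passed the filter on low counts, Tbx21 only through WT 405 and WT 1037.

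**Figure D2:**
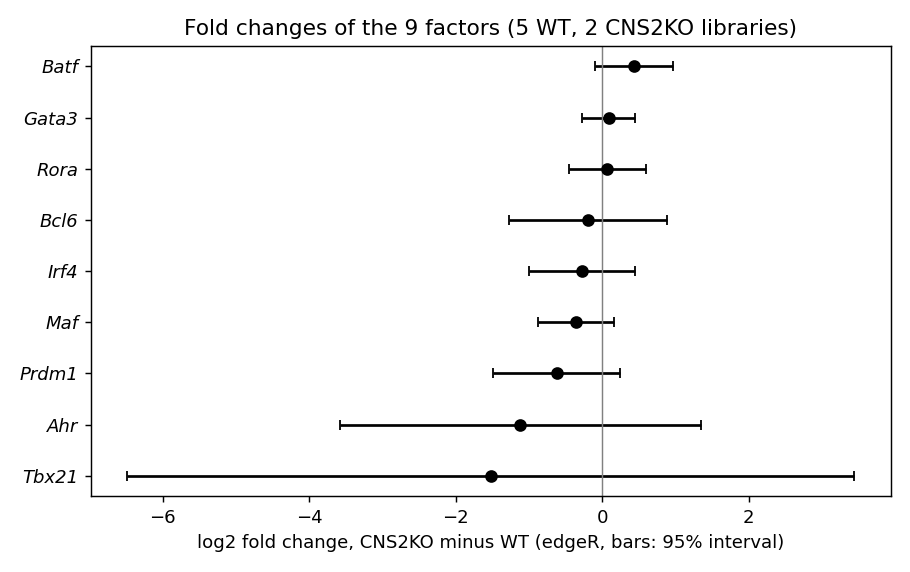
Log2 fold change of each factor, CNS2KO minus WT, from edgeR, with 95% intervals (5 WT and 2 CNS2KO libraries). Every interval includes 0, from Gata3 (-0.28 to 0.45) to Tbx21 (-6.48 to 3.44).

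Gata3, the zinc finger factor of type 2 helper cells that also sustains regulatory T cells, varied least of the 9 over the WT libraries. It stood at 159 CPM in WT 398, 138 in WT 402, 164 in WT 405, 152 in WT 1032 and 152 in WT 1037, and at 149 and 177 CPM in CNS2KO 399 and 408. CNS2KO 399 lay inside the WT range and CNS2KO 408 above it. The means were 153 ± 9.80 CPM in WT (SD, n = 5) and 163 ± 19.7 in CNS2KO (SD, n = 2). CNS2KO minus WT came to 0.087 on the log2 scale (SE 0.17, 95% interval -0.28 to 0.45), or -0.050 without CNS2KO 408. Among 1101 genes within 0.5 log2 units of its mean level, 3.54% had a smaller spread over the WT libraries (SD of log2 CPM 0.094, against a median of 0.22). This is a description with no test.

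Tbx21, the type 1 factor, was at or near the limit of detection. It had 3, 0, 29, 0 and 14 reads in WT 398, 402, 405, 1032 and 1037, and 0 and 7 reads in CNS2KO 399 and 408. Both genotypes thus held a library with 0 reads, and the highest value, 1.48 CPM, was in WT 405. A count of 0 allows up to 0.182 CPM in WT 402, 0.162 in WT 1032 and 0.142 in CNS2KO 399. The log2 fold change of -1.52 had a 95% interval of -6.48 to 3.44, so no difference was detectable at this depth.

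Rora, a nuclear receptor, stood at 36.9, 28.3, 36.3, 40.2 and 44.0 CPM in WT 398, 402, 405, 1032 and 1037, and at 40.2 and 37.8 CPM in CNS2KO 399 and 408. Neither CNS2KO value fell outside those of WT. The difference was 0.071 on the log2 scale (SE 0.24, 95% interval -0.45 to 0.59), and -0.012 without WT 402. Maf, a leucine zipper factor that drives IL-10 and IL-21, stood at 55.2, 58.8, 66.2, 52.1 and 82.7 CPM in the same WT libraries. It stood at 44.9 CPM in CNS2KO 399, the lowest of the 7, and 53.7 CPM in CNS2KO 408, within the WT range. The estimate for Maf was -0.35 on the log2 scale (SE 0.24, 95% interval -0.87 to 0.17), and it was -0.23 without CNS2KO 399.

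Ahr, which senses aryl hydrocarbons and tryptophan products, had 217, 84, 138, 278 and 196 reads in WT 398, 402, 405, 1032 and 1037, and 194 in CNS2KO 408. It had 0 reads in CNS2KO 399, the library with the most reads. In CPM the WT values were 11.8, 5.10, 7.02, 14.997 and 11.5, and CNS2KO 408, at 9.28, lay among them. The floor of 3 reads in CNS2KO 399 was 0.142 CPM, so Ahr was at least 36.0-fold lower there than in the lowest WT library. The CNS2KO libraries thus stood apart from each other, and the fitted log2 fold change of -1.12 (95% interval -3.58 to 1.35) was -0.12 without CNS2KO 399. Without CNS2KO 408, the fitted log2 fold change of Ahr was -10.55, in a fit whose spread came from WT alone. limma-voom gave -4.35 (unadjusted p = 0.031, adjusted p = 0.99), and a fitted value against 0 reads depends on the count added before taking logs. Of 8626 genes with at least 84 reads in every other library, 6 had 0 reads in CNS2KO 399: Ahr, Cd24a, Klhl21, Rpgr, Tacc2 and 4921531C22Rik. There were 2 such genes for WT 402, 1 for WT 1032 and 0 for each of the other libraries, counts chosen after the value of Ahr was seen.

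Bcl6, the repressor of follicular helper cells, varied over 2.41-fold among WT libraries. It stood at 15.2, 14.2 and 13.2 CPM in WT 398, 405 and 1032, and at 6.31 and 6.66 CPM in WT 402 and 1037. CNS2KO 408 had 13.3 CPM, near the higher WT libraries, and CNS2KO 399 had 6.05 CPM, just under the lower ones. The estimate for Bcl6 was -0.20 on the log2 scale (SE 0.49, 95% interval -1.28 to 0.88), and it was 0.27 without CNS2KO 399 and -0.89 without CNS2KO 408.

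Irf4, induced by T cell receptor signals, stood at 71.2, 53.4, 74.2, 120 and 49.1 CPM in WT 398, 402, 405, 1032 and 1037, and at 50.9 and 70.8 CPM in CNS2KO 399 and 408. The CNS2KO values fell between the lowest and highest of WT, the highest being WT 1032. The estimate for Irf4 was -0.28 on the log2 scale (SE 0.33, 95% interval -0.99 to 0.44), and it was -0.026 without WT 1032 and -0.54 without CNS2KO 408. Irf4 was among the more variable genes of its level in WT, with 94.1% of 1873 like-expressed genes having a smaller spread.

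Batf, a small leucine zipper factor, stood at 48.0, 37.7, 32.5, 41.9 and 54.0 CPM in WT 398, 402, 405, 1032 and 1037. CNS2KO 399, at 64.5 CPM, was the highest of the 7 libraries, and CNS2KO 408, at 50.9 CPM, lay inside the WT range. The means were 42.8 ± 8.44 CPM in WT (SD, n = 5) and 57.7 ± 9.59 in CNS2KO (SD, n = 2). Its log2 fold change of 0.43 (SE 0.24, 95% interval -0.10 to 0.96) had the smallest unadjusted p of the 9, 0.104 by edgeR. It was 0.26 without CNS2KO 399.

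Prdm1, a repressor needed for IL-10 in effector regulatory T cells, stood at 33.0, 21.7, 16.5, 35.2 and 15.7 CPM in WT 398, 402, 405, 1032 and 1037. CNS2KO 399, at 12.1 CPM, was the lowest library, and CNS2KO 408, at 19.7 CPM, lay inside the WT range. The means were 24.4 ± 9.17 CPM in WT (SD, n = 5) and 15.9 ± 5.34 in CNS2KO (SD, n = 2). For Prdm1 the estimate was -0.62 on the log2 scale (SE 0.40, 95% interval -1.48 to 0.24), and it was -0.31 without CNS2KO 399 and -1.03 without CNS2KO 408.

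**Figure D3:**
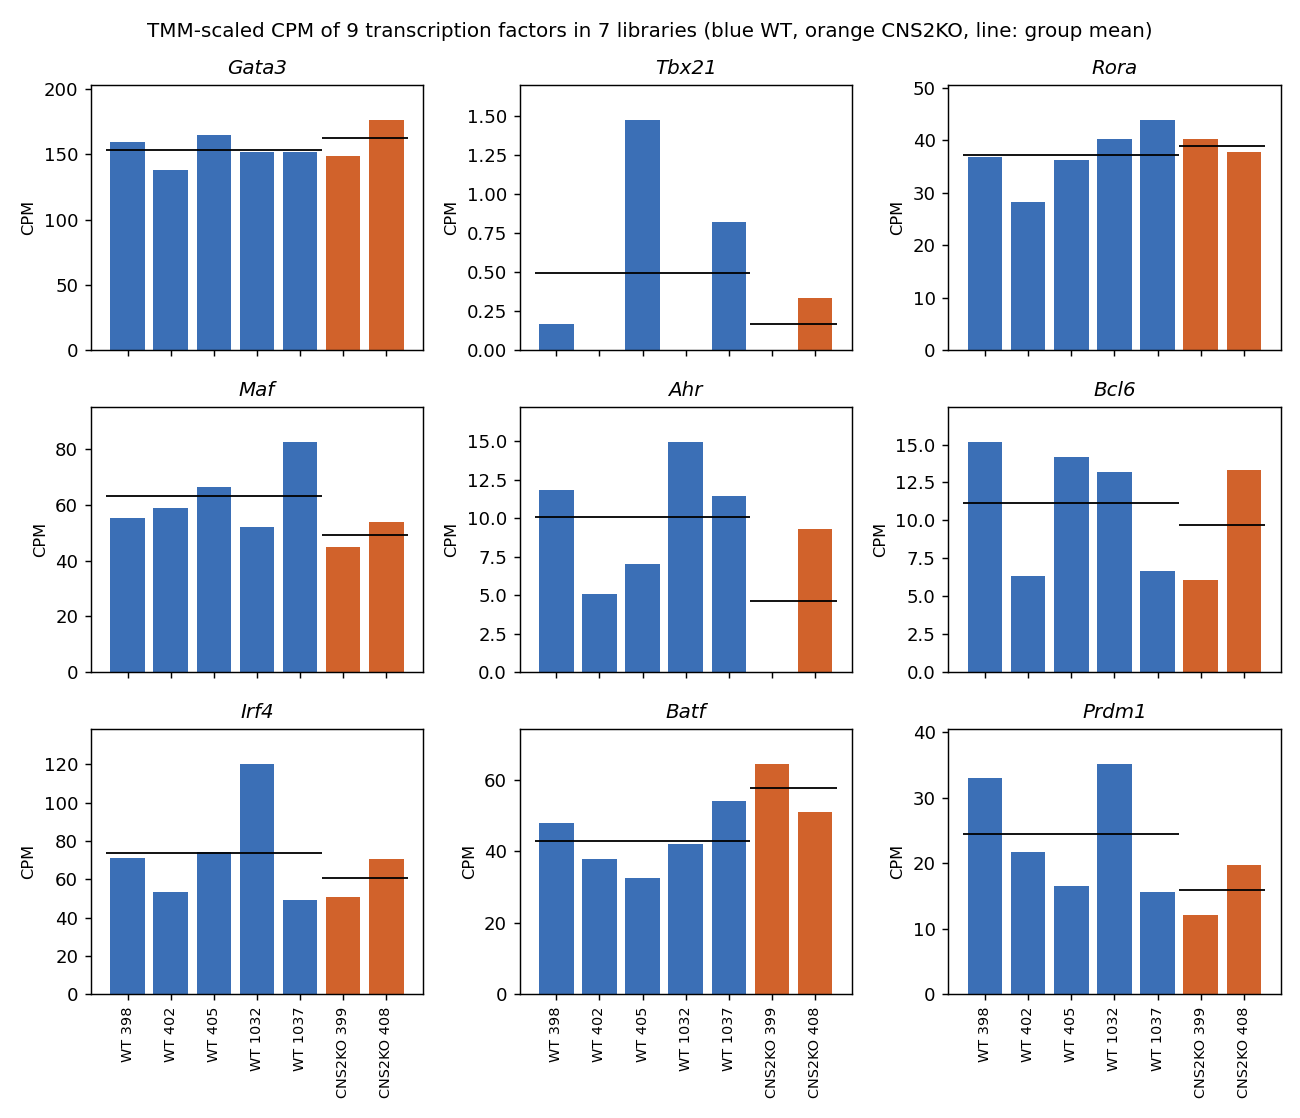
CPM of each factor in the 5 WT (blue) and 2 CNS2KO (orange) libraries, as bars from 0, with a line at each group mean. Gata3 is nearly level, Ahr is at 0 in CNS2KO 399, and in no panel do both orange bars lie beyond all blue ones.

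CNS2KO 399 was the lowest library for 4 of the 9 factors (Bcl6, Maf, Ahr and Prdm1) and the highest for Batf. Over all genes tested it was the lowest library for 18.9% and the highest for 18.9%. CNS2KO 408 was the lowest for 0 factors and the highest for Gata3 (7.39% and 10.2% of all genes). On the log2 scale, the gap between the 2 CNS2KO libraries exceeded the whole WT range for Ahr, while for Gata3 it was -0.25 against a WT range of 0.25. WT 1032 was the highest for Irf4, Ahr and Prdm1 (18.3% of all genes), and WT 1037 for Maf and Rora (13.9% of all genes). No library was the highest or the lowest for all 9.

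**Figure D4:**
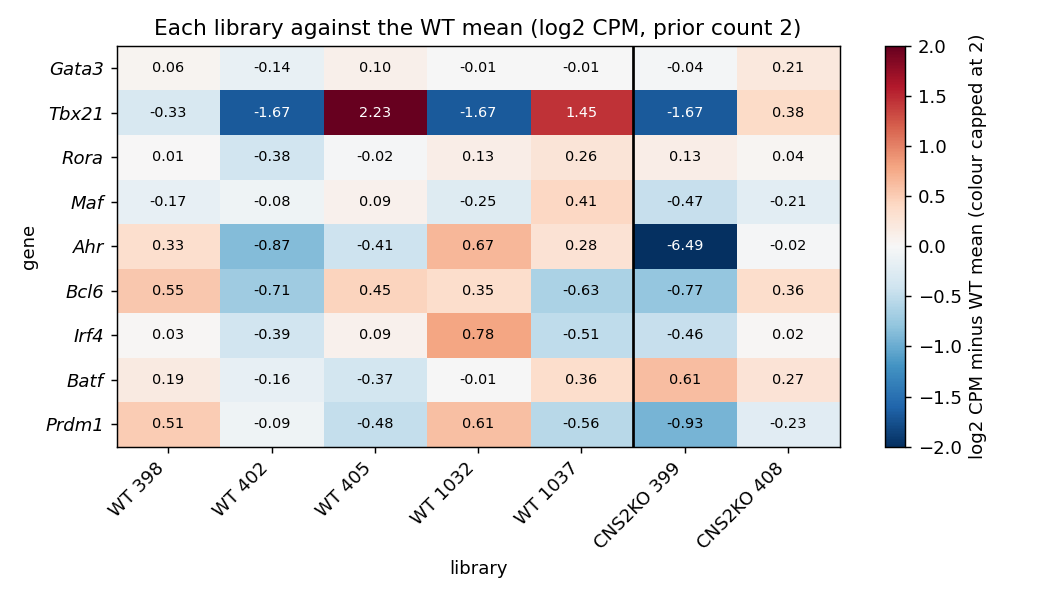
Log2 CPM (prior count 2) of each factor in each library minus its WT mean, as numbers and colours (capped at 2). The column of CNS2KO 399 runs from -6.49 for Ahr to 0.61 for Batf, and that of CNS2KO 408 from -0.23 for Prdm1 to 0.38 for Tbx21.

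Ratios between factors were taken within each library. The log2 ratio of Bcl6 to Prdm1 was -1.12, -1.78, -0.22, -1.41 and -1.23 in WT 398, 402, 405, 1032 and 1037, and -1 and -0.56 in CNS2KO 399 and 408. Both CNS2KO ratios fell among those of WT, although both genes were lowest in CNS2KO 399. The difference of 0.37 had an exact permutation p of 0.476 (two-sided, 21 assignments, smallest possible 0.048 before adjustment, adjusted p = 0.619 over 3 ratios). A ratio that alone reached that smallest p could not have passed 0.05 after adjustment. The log2 ratio of Irf4 to Batf was 0.57, 0.50, 1.19, 1.52 and -0.14 in WT, and -0.34 and 0.48 in CNS2KO, with CNS2KO 399 below every WT library and CNS2KO 408 inside their range. Its difference was -0.66 (exact permutation p = 0.238, adjusted p = 0.619), and -0.25 without CNS2KO 399. The ratio of Tbx21 to Gata3, taken with a prior count of 2 because Tbx21 had libraries with 0 reads, moves with depth in those libraries. It differed by -0.73 (exact permutation p = 0.619, adjusted p = 0.619), and by 0.17 without CNS2KO 399.

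Paralogs of the factors gave no call. Of 22 paralogs listed, 15 passed the filter, 8 with positive and 7 with negative fold changes (median 0.072), and 0 passed the test. The interferon-induced Irf1 had a mean of 391 ± 45.8 CPM in WT against 454 in CNS2KO, Irf9 had 264 ± 31.3 and 263 CPM, and Irf2 had 161 ± 29.9 and 160 CPM. Eomes, related to Tbx21, had at most 8.50 CPM (CNS2KO 399). Batf3 and Batf2 had at most 1 read in any library. Of the partners and upstream STAT and AP-1 factors, 20 of 22 were tested, 8 positive and 12 negative (median -0.048), with 0 passing. Stat6 had 398 CPM in WT and 412 in CNS2KO, and the corepressor Ncor1 318 and 283. The medians were also not stable in sign, at -0.10 for paralogs without CNS2KO 408 and 0.076 for partners without CNS2KO 399.

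Genes that mark each helper lineage showed low cytokine levels and no called change. In the type 1 list 12 of 14 were tested, 6 positive and 6 negative (median -0.019). Stat4, which transmits IL-12 signals, had 198 ± 29.0 CPM in WT against 255 in CNS2KO, a log2 difference of 0.36. Its CNS2KO values were both above the highest of WT, as in 3.76% of all genes. The chemokine Ccl5 stood at -0.13. The cytokine Ifng was read in every library, at 0.99 to 4.01 CPM in WT, and at 1.89 and 2.295 CPM in CNS2KO 399 and 408. In the type 2 list 8 of 13 were tested, 2 positive and 6 negative (median -0.15), with Il4ra at -0.016 and the chemokine receptor Ccr4 at -0.59. Ccr4 stood at -0.31 without CNS2KO 399, -0.92 without CNS2KO 408 and -0.19 with WT libraries of 3-digit numbers alone. Il13 and Il24 had 0 reads in every library. In the follicular list 11 of 13 were tested, 5 positive and 6 negative (median -0.0046). Its most abundant genes were Lef1 (-0.18), Tcf7 (-0.40) and Tox (-0.16), and Il21 had 0 reads. In the type 17 list 7 of 12 were tested, 3 positive and 4 negative (median -0.040), with Stat3 at -0.040, Il6st at -0.39 (-0.015 without CNS2KO 399, -0.90 without CNS2KO 408) and Hif1a at 0.037, and Il17a, Il17f and Il22 had 0 reads. In these 4 lists edgeR called 0 genes, and 3 genes had an edgeR unadjusted p under 0.05: Ccr8 (-0.91), Tcf7 and Il6ra (-0.53). They were 0 of 12 tested for type 1, 1 of 8 for type 2, 2 of 11 for follicular and 1 of 7 for type 17. Il6ra is in both the follicular and the type 17 list. The share over all genes was 2.5%. Ccr8 and Il6ra were named after their values were seen. For Tcf7 and Il6ra the CNS2KO values were both under the lowest of WT, as in 3% of all genes. Without CNS2KO 399 the 3 genes stood at -0.42, -0.28 and -0.29. Leaving out 1 library turned the sign of each list median: 0.086 for type 1 without CNS2KO 408, 0.076 for type 2 without WT 1032, 0.17 for follicular without CNS2KO 399 and 0.028 for type 17 without WT 398.

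Of the 9 listed genes that Ahr induces, 4 were tested, 2 positive and 2 negative (median 0.047, and -0.65 without CNS2KO 408). Tiparp, which feeds back on Ahr, stood at 18.7, 10.4, 24.6, 16.1 and 20.6 CPM in WT 398, 402, 405, 1032 and 1037, and at 5.24 and 13.1 CPM in CNS2KO 399 and 408. CNS2KO 399, the library with no Ahr reads, was the lowest, and CNS2KO 408 lay inside the WT range. Its log2 fold change was -0.98 (edgeR unadjusted p = 0.049, adjusted p = 0.99989), and -0.46 without CNS2KO 399. Entpd1 (CD39) had 67.7 ± 2.77 CPM in WT against 72.3 in CNS2KO, and the homing receptor Gpr15 had 16.8 CPM in both. CNS2KO 399 was the lowest library for Gpr15 as well (10.8 CPM). It was the highest for Entpd1 (79.6 CPM, WT at most 71.0) and for Nqo1 (3.40 CPM, WT at most 1.23). The 4 tested genes thus did not move together in the library without Ahr reads, and whether they followed Ahr was not tested. Cyp1a1, the classical target, had at most 0.0545 CPM in any library, which is under the floor.

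Effector regulatory T cell genes, a program in which Irf4, Batf and Prdm1 act, had 4 positive and 16 negative fold changes among 20 (median -0.28, and -0.16 without WT 1037). edgeR called 0 of them, and S100a6 (-0.88) and Ccr2 (-0.81), named after their values were seen, had an unadjusted p under 0.05. These were 2 of the 20, against 2.5% of all genes. In 3 of the 20 (Tigit, Cd44 and S100a6) the CNS2KO values were both under the lowest of WT, against 3% of all genes. The most abundant were the costimulatory receptor Tnfrsf4 (0.16), the inhibitory receptor Ctla4 (0.14) and Icos (-0.26). Earlier results of these data were known when this list was made, so its direction is no independent evidence. Naive and resting T cell genes had 5 positive and 8 negative fold changes among 13 (median -0.18), with Ets1 at 0.016 and the egress receptor S1pr1 at -0.34. In 4 of these 13 (Tcf7, S1pr1, Foxp1 and Foxo1) the CNS2KO values were both under the lowest of WT, against 3% of all genes. edgeR called 0 of the 13, and 2, Tcf7 and S1pr1, had an unadjusted p under 0.05, against 2.5% of all genes. This list, too, was made with earlier results of these data known.

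**Figure D5:**
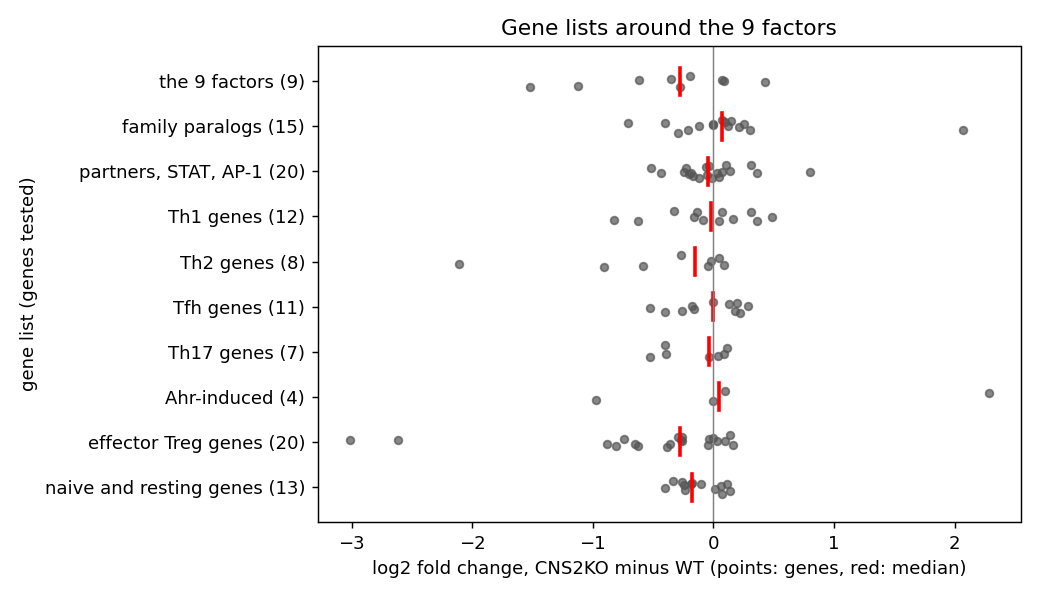
Log2 fold change (CNS2KO minus WT) of each tested gene in 10 lists, with the median of each list in red. Medians lie between -0.28 and 0.072, and 0 genes passed the test.

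Genes most like each factor over the 7 libraries were found by the mean absolute difference of log2 CPM, each gene centred on its own mean. Among the nearest genes, Gata3 was close to Mtf2 (0.030) and Evl (0.034), Prdm1 to Tubgcp6 (0.14), Batf to Rpl31 (0.087), and Bcl6 to Tyk2 (0.10) and Madd (0.11). Irf4 was close to Ascc2 (0.092) and Ahnak (0.095), Maf to Prps1 (0.061) and Clpp (0.067), and Rora to Rad52 (0.062) and Ctdsp2 (0.068). The median over the genes compared was 0.24 for Gata3 and 0.55 for Bcl6. Tbx21 and Ahr, with libraries at 0 reads, had no near neighbour (smallest differences 0.88 and 0.86). Among the 9, the nearest pair was Gata3 and Rora (0.16). These likenesses are a description, with no test.

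Markers of other cells that use the same factors were also read. B cells use Bcl6, Irf4 and Prdm1. Of 10 B cell markers listed, 9 were in the table and summed to 1064 to 1364 CPM in WT, 1157 CPM in CNS2KO 399 and 982 CPM in CNS2KO 408. Their fold changes were positive for 2 and negative for 6 of 8 tested. Most of this was Ighm, at 1007 to 1308 CPM in WT, and 1074 and 939 CPM in CNS2KO 399 and 408. Cd79b had 21.9 to 30.2 CPM in WT, 48.1 CPM in CNS2KO 399, and 23.2 CPM in CNS2KO 408, inside the WT range. Ms4a1 had 6.15 to 11.4 CPM in WT, and 8.36 and 6.55 CPM in CNS2KO 399 and 408. Pax5 had 8.47 CPM in WT 1037 and 0 reads in WT 402, WT 405, WT 1032 and CNS2KO 399. The plasma cell markers, led by Xbp1 and Igj, summed to 19.1 to 68.1 CPM in WT and 45.9 and 57.5 CPM in CNS2KO, with the defining Sdc1 at most 0.108 CPM and Tnfrsf17 at 0. Xbp1 is also expressed by T cells. Of 11 myeloid markers 9 were in the table (Cst3, Csf1r and Lyz2 leading), with 5 positive and 3 negative fold changes (median 0.67, 0.43 without CNS2KO 399, 1.19 without WT 405, and -0.11 over the 2 genes left with 10 CPM in 2 libraries). They summed to 65.4 to 91.9 CPM in WT and 85.9 and 99.2 CPM in CNS2KO. CD8 and NK markers (Cd8b1, Nkg7 and Prf1 leading) summed to 69.2 to 82.1 CPM in WT and 87.3 and 69.3 CPM in CNS2KO, with Ncr1 at 0 reads. Their fold changes were positive for 6 and negative for 2 (median 0.20, and -0.22 without CNS2KO 408). The 2 negative ones were the CD8 genes Cd8b1 (-0.54) and Cd8a (-0.34). Gzma, a granule protease named after its values were seen, had 6.28 and 2.39 CPM in CNS2KO 399 and 408 and at most 1.03 CPM in WT (edgeR unadjusted p = 0.026). Innate type 2 markers (Il1rl1, Hpgds and Kit leading) summed to 15.3 to 35.0 CPM in WT and 26.9 and 19.2 CPM in CNS2KO, with Il13 at 0. Red cell markers summed to 7.36 to 29.4 CPM in WT, and to 156 CPM in CNS2KO 399 and 32.1 CPM in CNS2KO 408, both above every WT library. Their fold changes were positive for 5 and negative for 1 of 6 tested (median 2.13, and 0.62 without CNS2KO 399). Of these 6, 3 had an edgeR unadjusted p under 0.05, against 2.5% of all genes. Hbb-b1 alone had 78.4 CPM in CNS2KO 399, 11.9 CPM in CNS2KO 408 and 1.23 to 12.5 CPM in WT. CNS2KO 399, which set the lowest Bcl6, Maf, Ahr and Prdm1 values, was thus the library with most globin RNA, and the part of other cells in these values was not tested.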

How the data were processed

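Per the labels, total RNA of sorted mouse regulatory T cells was amplified by SMARTer and prepared for Proton sequencing. STAR, BWA, edgeR and build mm9 appear, without versions, per the submitters' processing notes. Annotation, counter and strand use: not given in the sources used here. Reads of Gata3, Bcl6, Maf, Rora and Ahr may therefore include reads of antisense transcripts that overlap their exons. The authors deposited raw counts per gene symbol, and log2 values whose scaling is not stated. A further deposited table, with unnamed groups, was not used here. The 5 summary rows were left out, as were 2 value columns per table whose number is carried by a sample of each genotype.

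All genes were fitted by edgeR 4.0.16 in R 4.3.3 (filterByExpr, TMM, two-sided quasi-likelihood test, Benjamini-Hochberg). Library pairs were compared by chi-square, and the closest had 29.9 per degree of freedom, so none agreed within sampling noise. The 3 ratios had exact permutation tests, and that of Tbx21 to Gata3 needed a prior count. Alternatives used DESeq2 1.42.0, limma 3.58.1, other scalings, filters and library sets. The factors and gene lists were chosen with earlier results of these data known. Named genes are the 9 factors, the 3 most abundant of each list and the nearest 2 genes per factor (mean log2 CPM of at least 4). Some genes that this rule names are not reported here.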

Additional observations from a re-analysis of the deposited data

Results flagged for a closer look

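Among 61 checks of 5 WT values each (a factor, ratio or listed gene), 2 found a library well apart from the rest. Chance alone flags about 1 in 20 such groups. Neither concerned the 9 factors or their ratios. WT 1037 had 1308 CPM of the immunoglobulin gene Ighm, against 1055 CPM in the next library. WT 398 had 6.15 CPM of the B cell gene Ms4a1, against 9.93 CPM in the next.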

How the results depend on the processing

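No paired analysis was possible because the genotypes share 1 number, whose columns were left out. The count of factors called was 0 in all fits run. The count of all genes called was also 0, with any 1 library left out too, except without a filter for low counts. There it was 8, with 1 listed gene, Hbb-b1, among them, and the cause was not tested. In 79 comparisons of a factor with its value under another scaling, tool, filter or set of WT libraries, 79 kept their sign. Tbx21 was not tested with 10 CPM in 2 libraries, with WT numbers of 3 digits only, or without WT 405 or WT 1037. With WT numbers of 3 digits only, that is without WT 1032 and WT 1037, Irf4 stood at -0.12, Rora at 0.21, Bcl6 at -0.30 and Ahr at -0.78. With 1 library left out, the log2 fold change ranged from -0.050 to 0.21 for Gata3, -0.012 to 0.14 for Rora, -0.89 to 0.27 for Bcl6, -10.55 to -0.12 for Ahr and -6.20 to -0.54 for Tbx21. The log2 ratio difference ranged from -1.63 to 0.17 for Tbx21 to Gata3, 0.15 to 0.61 for Bcl6 to Prdm1 and -1.07 to -0.25 for Irf4 to Batf. Among listed genes that changed sign, the ranges were -0.063 to 0.44 for Irf1, -0.10 to 0.093 for Irf2, -0.31 to 0.25 for Irf9, -0.070 to 0.15 for Stat6, -0.13 to 0.037 for Stat3, -0.69 to 0.27 for Ccl5, -0.15 to 0.10 for Il4ra, -0.36 to 0.0075 for Tox, -0.42 to 0.38 for Hif1a, -0.052 to 0.22 for Entpd1, -0.65 to 0.44 for Gpr15, -0.012 to 0.32 for Tnfrsf4, -0.043 to 0.30 for Ctla4 and -0.28 to 0.26 for Ets1. Of 261 comparisons of other named genes under those settings, 17 changed sign. limma-voom gave Irf2 0.014, Il4ra 0.0053 and Ets1 -0.0022, and limma on the deposited log2 values gave Irf2 0.020 and Il4ra 0.011. With no filter Gpr15 stood at 0.0034, and with 10 CPM in 2 libraries Ets1 at -0.0065. With WT numbers of 3 digits only, the values were 0.084 for Irf9, 0.030 for Irf2, -0.0089 for Stat6, 0.13 for Gpr15 and -0.016 for Ets1. With a term for WT 1032 and WT 1037 they were 0.083 for Irf9, 0.030 for Irf2, -0.0094 for Stat6, 0.13 for Gpr15 and -0.017 for Ets1. By Pearson's r in place of the mean difference, 5 of 9 factors shared 1 of their 2 nearest genes. Where a CNS2KO library was left out, the other was assumed to vary like WT. Depth limits Tbx21, at 29 reads or fewer.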
